A study of Mus musculus with 36 samples.

Results

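The genes described here are the clustered histone genes of the mouse, which encode the replication-dependent histones H1, H2A, H2B, H3 and H4. They were chosen by name: every Ensembl gene of the deposited count tables whose GRCm38-era symbol begins with Hist1h, Hist2h, Hist3h or Hist4h. This gave 68 of the 49315 genes, and 2 further symbols of the same kind had no entry in the tables used here. Of the 68, 60 had a count in at least 1 library and 8 had none. By class they were 6 H1, 20 H2A, 17 H2B, 12 H3 and 13 H4 genes. By place, 54 lay in the Hist1 cluster on chromosome 13, 10 in Hist2 on chromosome 3, 3 in Hist3 on chromosome 11, and Hist4 was the single gene Hist4h4 on chromosome 6 (GRCm38.p6).

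The cells were C2C12, an established line of mouse myoblasts (muscle precursor cells) that was grown as proliferating cultures in experiment units qualified for flight. RNA was measured in 3 regimes, namely on land, in space with gravity and in space without it, and each regime had 3 libraries without nanoceria and 3 with it, 6 groups and 18 libraries in all. Nanoceria are cerium oxide nanoparticles, given as a serum-coated dispersion at 100 µg/ml in a medium reservoir. All groups were fixed in RNAlater inside the units. The land cultures came from a later run in the same hardware on the ground, so the place and the run cannot be told apart in any comparison of space with land. The labels count 3 experiment units per group, and p-values measure the spread between these units. The libraries were of bulk RNA, in which a smaller share of cells in one state and less RNA per cell cannot be told apart.

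Replication-dependent histone genes supply the proteins that package newly copied DNA, and their mRNAs accumulate in S phase, the part of the cell cycle in which DNA is copied. Their mRNAs normally end just after a conserved stem-loop that is bound by the protein SLBP (stem-loop binding protein), and they carry no poly(A) tail. Some of these genes also give longer transcripts that run past the stem-loop to a polyadenylation site, in particular in cells that have left the cycle or have differentiated. The libraries here were enriched for polyadenylated RNA, so the counts are of histone RNA caught by that step and are no measure of all histone mRNA.

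The stem-loop is shown first because the counts described below are divided by where a gene model ends relative to it. It was searched as a consensus of 16 bases that begins with GG and ends with CC, with a stem of 6 paired bases around a loop of 4, on the gene's own strand, within 300 bases after the annotated stop codon. It was found in 62 of the 65 histone genes that had a stop codon to search from, and in 5 of 21413 other genes. It began between 21 and 58 bases after the stop codon. There were 8 distinct forms, and the most frequent, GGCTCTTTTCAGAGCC, was found in 38 genes. The following stem-loops of genes described below are on the coding strand of GRCm38.p6, with the 16 bases of the stem and loop in capitals and 5 flanking bases on each side.
Hist1h1c, capitals at chr13:23739512-23739527, plus strand: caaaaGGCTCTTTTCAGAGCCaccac
Hist1h2bc, capitals at chr13:23684647-23684662, plus strand: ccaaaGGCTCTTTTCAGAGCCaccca
Hist1h2ac, capitals at chr13:23683477-23683492, minus strand: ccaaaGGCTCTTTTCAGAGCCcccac
Hist1h2bn, capitals at chr13:21754533-21754548, plus strand: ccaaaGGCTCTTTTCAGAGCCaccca
Hist1h4i, capitals at chr13:22040966-22040981, minus strand: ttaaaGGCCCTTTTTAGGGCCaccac
The 4 H1, H2A and H2B genes shown share the same 16 bases, while Hist1h4i has the form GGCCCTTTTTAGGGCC, found in 2 genes, Hist1h4i and Hist2h4.

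Total counts per library ran from 2986628 to 11378178 in 17 libraries and were 23858 in the remaining one, space with gravity and nanoceria replicate 3. Histone genes held between 407 and 3680 counts in the 17 libraries and 13 counts in the smallest. Levels are given as CPM, counts per 1000000 of a library size that was scaled by the TMM method (trimmed mean of M values). In the smallest library 3 counts corresponded to 35.7 CPM, so it could not show most histone genes at their usual level. In all libraries 6 dominant genes, which are Lars2 and 5 predicted genes, took between 23.8% and 76.3% of counts: 23.8% to 54.4% in space with gravity, 40.7% to 70.3% in space without gravity and 49.6% to 76.3% on land. All 8 myoblast markers had counts in every group. Myf5 stood between 11.9 and 163 CPM, while Myod1 was at 0 in 4 of 6 libraries of space without gravity, 2 of 6 of space with gravity and 2 of 6 on land. Summed levels of the other lists of cell type markers reached at most 114 CPM for myotubes, 41.8 CPM for leukocytes, 7.16 CPM for osteoblasts, 5.26 CPM for adipocytes and 2.32 CPM for endothelium, and the ranges of space and land overlapped in each list. The osteoblast gene Bglap was lower in space with gravity than on land (log2 fold change -2.19).

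Over all 18 libraries the histone genes held 20611 counts, and 2 genes held 76.4% of them. Hist1h1c, which encodes a linker histone H1 that binds DNA between nucleosomes, had 7994 counts. Hist1h2bc, which encodes a core histone H2B, had 7747. Next came the H2A genes Hist1h2ac (936 counts) and Hist3h2a (679 counts), the H4 gene Hist1h4i (529 counts), the H2B gene Hist1h2be (377 counts) and the H3 gene Hist2h3c2 (344 counts). At the other end, 25 genes had between 1 and 10 counts in all libraries together. Per kilobase of gene model, the mean over the 18 libraries was 92.7 CPM for Hist1h2bc, 43.4 for Hist1h1c, 12.96 for Hist1h2ac, 6.07 for Hist1h4i, 3.77 for Hist2h3c2 and 2.82 for Hist3h2a.

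By class, H2B held 42.1% of histone counts and H1 39.9%, against 9.93% for H2A, 4.77% for H4 and 3.29% for H3. A nucleosome holds the core histones in equal numbers, and the counts of their classes were far from equal. Hist1h2bc alone held 7747 of the 8682 counts of H2B. Counts of RNA enriched for poly(A), not divided by length, do not measure the supply of each histone. The 54 genes of Hist1 held 93.5% of counts, those of Hist2 2.96% and those of Hist3 3.31%. Hist4h4 had 54 counts, with at most 2.75 CPM in any library. All 3 counts of the H2B gene Hist3h2ba lay in the smallest library.

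The counts differed with where the deposited gene model ended. In 16 genes the model ran more than 100 bases past the stem-loop, here called extended, and these held 87.6% of histone counts. In 46 genes it ended sooner, here called short, and these held 11.05%, or 6.51% without Hist1h2ac. The 14 extended genes other than Hist1h1c and Hist1h2bc held 11.25%, so most of the extended share lay in those 2 genes. Most extended models were also longer than the short ones, and these counts were not divided by length. The median was 61 counts for an extended gene and 9 for a short one. Closest to the division were Hist1h4a, with 108 bases past the stem-loop and 10 counts, and Hist1h3d, with 63 bases and 183 counts. An AATAAA or ATTAAA, the usual signals for polyadenylation, was present in the last 50 bases of 13 of the 16 extended models and 1 of the 46 short ones. Distances past the stem-loop are along the genome, introns included. The model of Hist1h2bc ended 7826 bases past the stem-loop because of a second exon, though the whole model holds 736 bases. The model of Hist1h1c reached 840 bases past the stem-loop without a break.

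**Figure D1:**
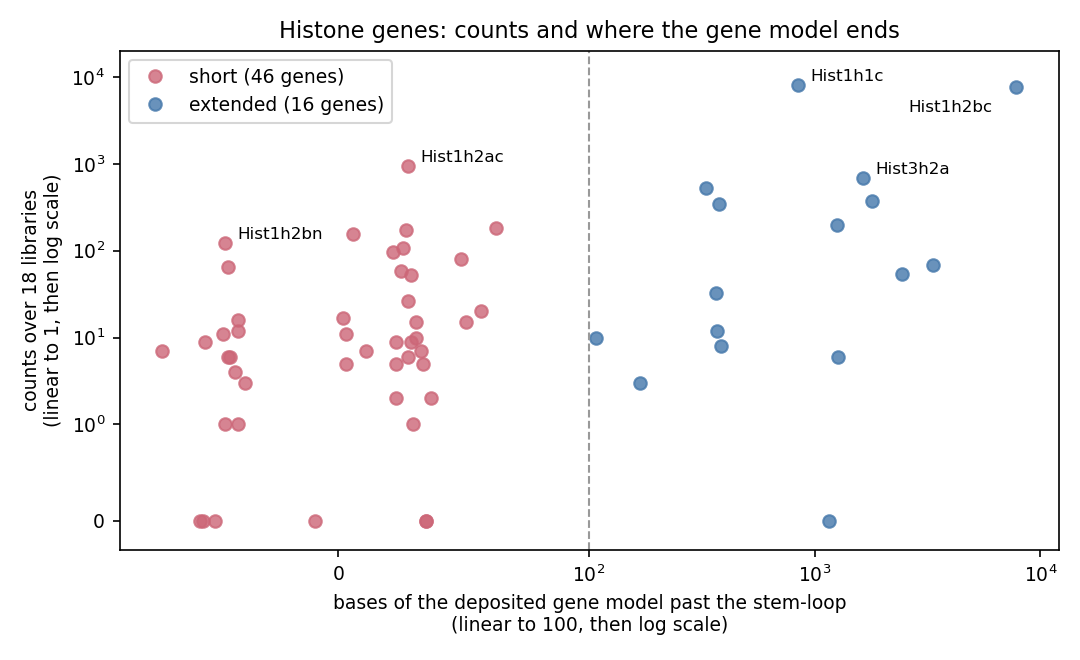
Counts over the 18 libraries (vertical axis, linear to 1 and then logarithmic) for the 62 histone genes with a stem-loop. The horizontal axis (linear to 100 and then logarithmic) is the distance on the genome from the stem-loop to the end of the gene model. That distance includes introns, as in Hist1h2bc. The 46 short models (red) hold at most 936 counts each, and the 16 extended models (blue) include Hist1h1c and Hist1h2bc with 7994 and 7747.

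The division was made after the counts had been seen, and it rests on the annotation used for counting. In GENCODE M21, another annotation of the same genome, 9 of the 46 short models were extended, and these 9 held 8.08% of counts. They included 5 of the 6 short genes abundant enough to test: Hist1h2ac, Hist1h2ae, Hist1h2bg, Hist1h3d and Hist1h1e. The 37 genes that were short in both annotations held 2.97% of counts, with a median of 6. Reads from any RNA past the end of a short model were not counted on that gene, so a level of Hist1h2ac here is that of its first 476 bases, while GENCODE M21 extends the gene to 2010 bases past the stem-loop.

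Histone genes are also alike in sequence, and how reads that fit several genes were counted is not given in the sources used here. Among stretches of 100 bases, 48.5% of those in Hist1h2ac, 49.8% in Hist1h2bc, 52.1% in Hist1h2bn and 5.07% in Hist1h1c occurred letter for letter in another gene's transcripts. For Hist2h2aa1, Hist2h2aa2, Hist2h3b, Hist2h3c1 and Hist2h2bb the share was 100.0% and the count was 0 in every library. Hist1h2bq and Hist1h2br, at 100.0% as well, had 129 and 68 counts. Other tested genes shared as much: 61.6% in Hist1h2bg, 61.6% in Hist2h3c2, 51.5% in Hist1h2ae and 51.0% in Hist1h3d. For all of these, for Hist1h2ac, Hist1h2bc and Hist1h2bn, and for the genes with full copies, it is therefore uncertain which gene gave the reads.

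Summed over the 68 genes, the level on land was 145 ± 35.4 CPM (SD, n = 3) without nanoceria and 152 ± 18.1 CPM (SD, n = 3) with nanoceria. Space with gravity had 228 ± 12.7 CPM (SD, n = 3) and 172 ± 33.1 CPM (SD, n = 3) in the same order, the latter 180 ± 42.0 CPM (SD, n = 2) without the smallest library. Space without gravity had 160 ± 20.2 CPM (SD, n = 3) and 213 ± 43.2 CPM (SD, n = 3). Space with gravity without nanoceria ran from 214 to 237 CPM and space without gravity with nanoceria ran from 181 to 262 CPM. Neither overlapped the land groups, which ran from 109 to 180 and from 132 to 168 CPM. For the second of them the gap was narrow, 180.7 CPM beside 180.3 CPM on land. The remaining groups of space overlapped land. The order depended on the denominator: per 1000000 counts outside the dominant genes, the 6 means ran from 287 on land with nanoceria to 450 in space with gravity and nanoceria, and land without nanoceria stood at 404 beside 396 in space with gravity without nanoceria. The 450 rested on the smallest library, with 13 histone counts. Without it that mean was 318, and the highest was 412 in space without gravity with nanoceria.

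The summed level of the 16 extended genes was 136 CPM on land and 194 CPM in space with gravity, both without nanoceria, and 141 and 136 CPM with nanoceria. In space without gravity it was 143 CPM without nanoceria and 194 CPM with it. The summed level of the 46 short genes was 8.84 CPM (7.89 to 9.69) on land without nanoceria and 10.7 CPM (6.84 to 15.5) with it. Space without gravity gave 12.6 CPM (9.23 to 14.4) and 15.4 CPM (8.80 to 23.4), and space with gravity 31.3 CPM (21.4 to 46.4) and 34.6 CPM (33.7 to 35.7). The value of 35.7 CPM is that of the smallest library, from 3 counts. All 6 libraries of space with gravity lay above all 6 of land in the short genes, and the extended genes of these groups overlapped. Without Hist1h2ac the short genes stood at 18.6 and 19.6 CPM in space with gravity (9.25 to 35.7 over both groups, the second mean 11.6 CPM without the smallest library) and at 8.26 and 10.4 CPM on land (6.18 to 15.5), so the ranges then overlapped. These sums are descriptions and were not tested.

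**Figure D2:**
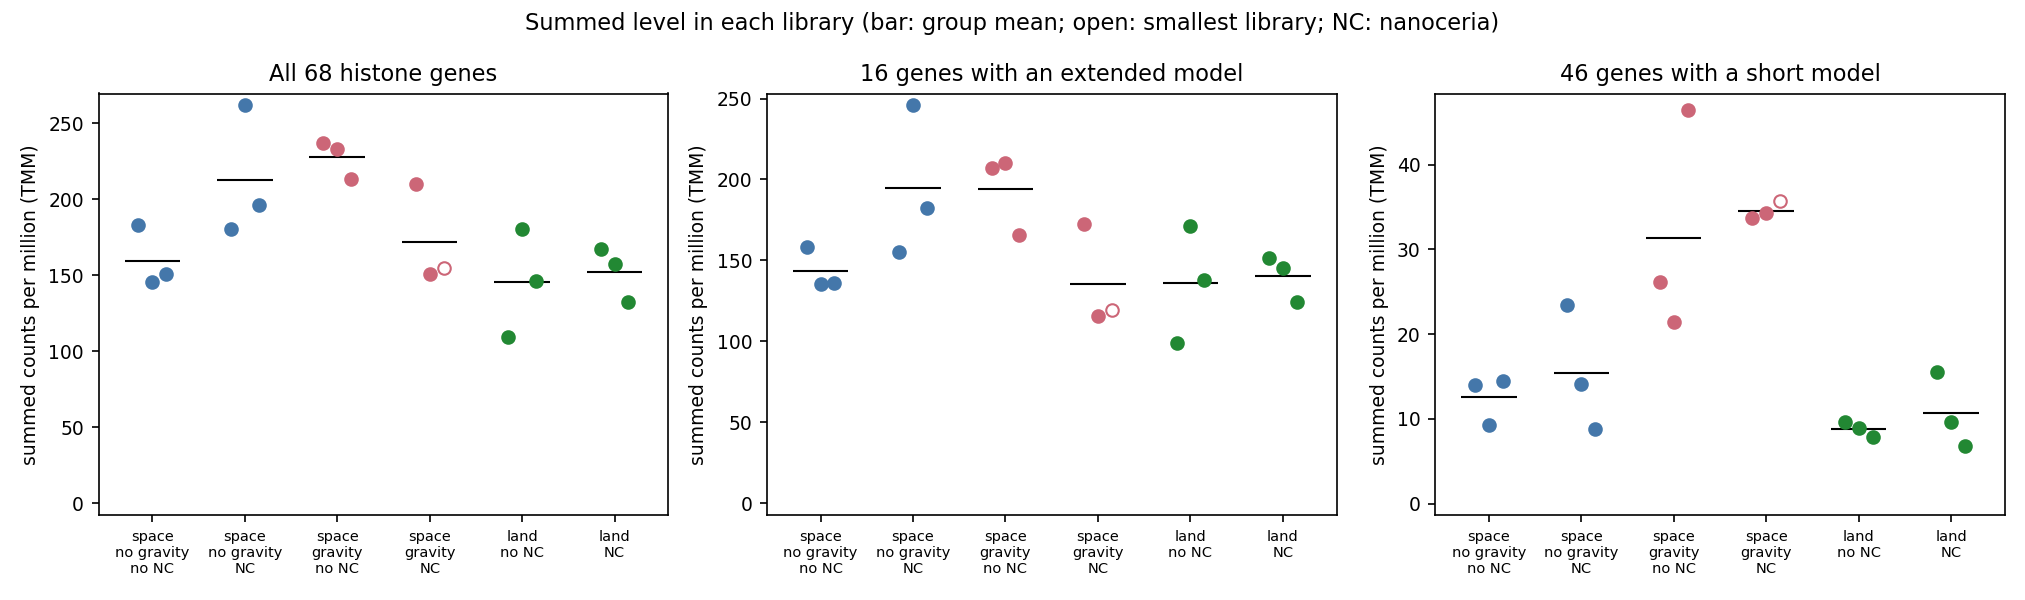
Summed level in CPM in each of the 18 libraries for all 68 histone genes, the 16 with an extended gene model and the 46 with a short one; bars are group means, NC is nanoceria and the open circle is the smallest library. In the right panel the libraries of space with gravity lie between 21.4 and 46.4 CPM and those of land between 6.84 and 15.5 CPM.

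Differences between groups were tested with edgeR's quasi-likelihood test on all 11558 genes that passed a filter on low counts, with Benjamini-Hochberg adjustment over those genes and a threshold of 0.05. Of the 68 histone genes 14 passed the filter: Hist1h1c, Hist1h1e, Hist1h2ac, Hist1h2ae, Hist3h2a, Hist1h2bc, Hist1h2be, Hist1h2bg, Hist1h2bn, Hist1h2bq, Hist1h3d, Hist2h3c2, Hist1h4i and Hist2h4. The other 54 were too sparse to test. A gene seen in only some groups can pass such a filter only through the groups where it is high, as Hist1h2bn did. Hist1h2ac, Hist1h2ae, Hist1h2bg and Hist1h2bq had at most 4 counts in any land library, so they too passed through groups of space. Counts and medians over the 14 therefore lean towards genes high in space and do not speak for the 68. Log2 fold changes are of the first group named minus the second and are averaged over nanoceria unless stated.

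Space with gravity against land compares the places with gravity present in both. Hist1h2ac and Hist1h2bn rose, 2 of the 14 tested genes, and 0 fell. Over all genes tested, 14% passed, 7.22% higher and 6.74% lower. At an unadjusted p under 0.05 there were 7 histone genes higher and 1 lower (Hist1h1e), where 31.9% of all genes reached it, 15.8% higher and 16.1% lower. The median log2 fold change of the 14 was 1.18, or 0.88 without Hist1h2bn, beside -0.04 for all genes tested. The 7 higher genes include Hist1h2ac, Hist1h2ae, Hist1h2bg, Hist1h2bn and Hist1h2bq, which passed the filter through the groups of space. Both medians of histone genes include such genes too. The lean of these counts and medians towards higher in space was therefore partly set by the filter. In space without gravity against land, Hist1h2ac rose and no other of the 14 passed, where 5.25% of all genes passed, 2.81% higher and 2.44% lower. At an unadjusted p under 0.05 there were 4 histone genes, all higher, where 24.7% of all genes reached it, 12.3% higher and 12.5% lower. Among these 4 were Hist1h2ac and Hist1h2bg, which passed the filter through groups of space. The median of the 14 was 0.49, or 0.72 without Hist1h2bn, which had 0 counts on both sides, beside -0.02 for all genes. Both comparisons used the same land libraries.

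Hist1h2ac encodes a core histone H2A (ENSMUSG00000069270, GRCm38.p6 chromosome 13, 23683449 to 23683924, minus strand, 1 exon). On land its level was 0.421, 0 and 1.31 CPM without nanoceria and 0, 0 and 0.651 CPM with it, from 0 to 4 counts a library. Space without gravity gave 6.82, 0.671 and 7.84 CPM without nanoceria and 5.39, 1.11 and 3.72 CPM with it. Space with gravity gave 10.96, 7.22 and 20.1 CPM without nanoceria and 19.8, 25.0 and 0 CPM with it, the last in the smallest library. Apart from that library, every library of space with gravity lay above every land library, by a gap from 1.31 to 7.22 CPM, while replicate 2 of space without gravity lay within the land range at both nanoceria levels.

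The log2 fold change of Hist1h2ac was 5.48 ± 0.86 (SE, edgeR adjusted p 0.00288) for space with gravity against land and 3.62 ± 0.84 (SE, edgeR adjusted p 0.0250) for space without gravity against land. Within the nanoceria levels, the values for space with gravity against land were 4.52 ± 1.12 (SE, edgeR adjusted p 0.0690) without nanoceria and 6.44 ± 1.31 (SE, edgeR adjusted p 0.0675) with it. With a covariate for the dominant genes' share of counts neither averaged call held (log2 fold changes 4.29 and 2.92, edgeR adjusted p 0.173 and 0.189), a setting that left 1 and 6 of all 11558 genes called. That share itself differed between regimes, so this fit cannot fully separate the share from the regime. The call for space without gravity ended when any of 6 single libraries was left out (space without gravity replicates 1 and 3 at both nanoceria levels, and land replicates 1 and 2 without nanoceria), with edgeR adjusted p between 0.0516 and 0.0717.

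**Figure D3:**
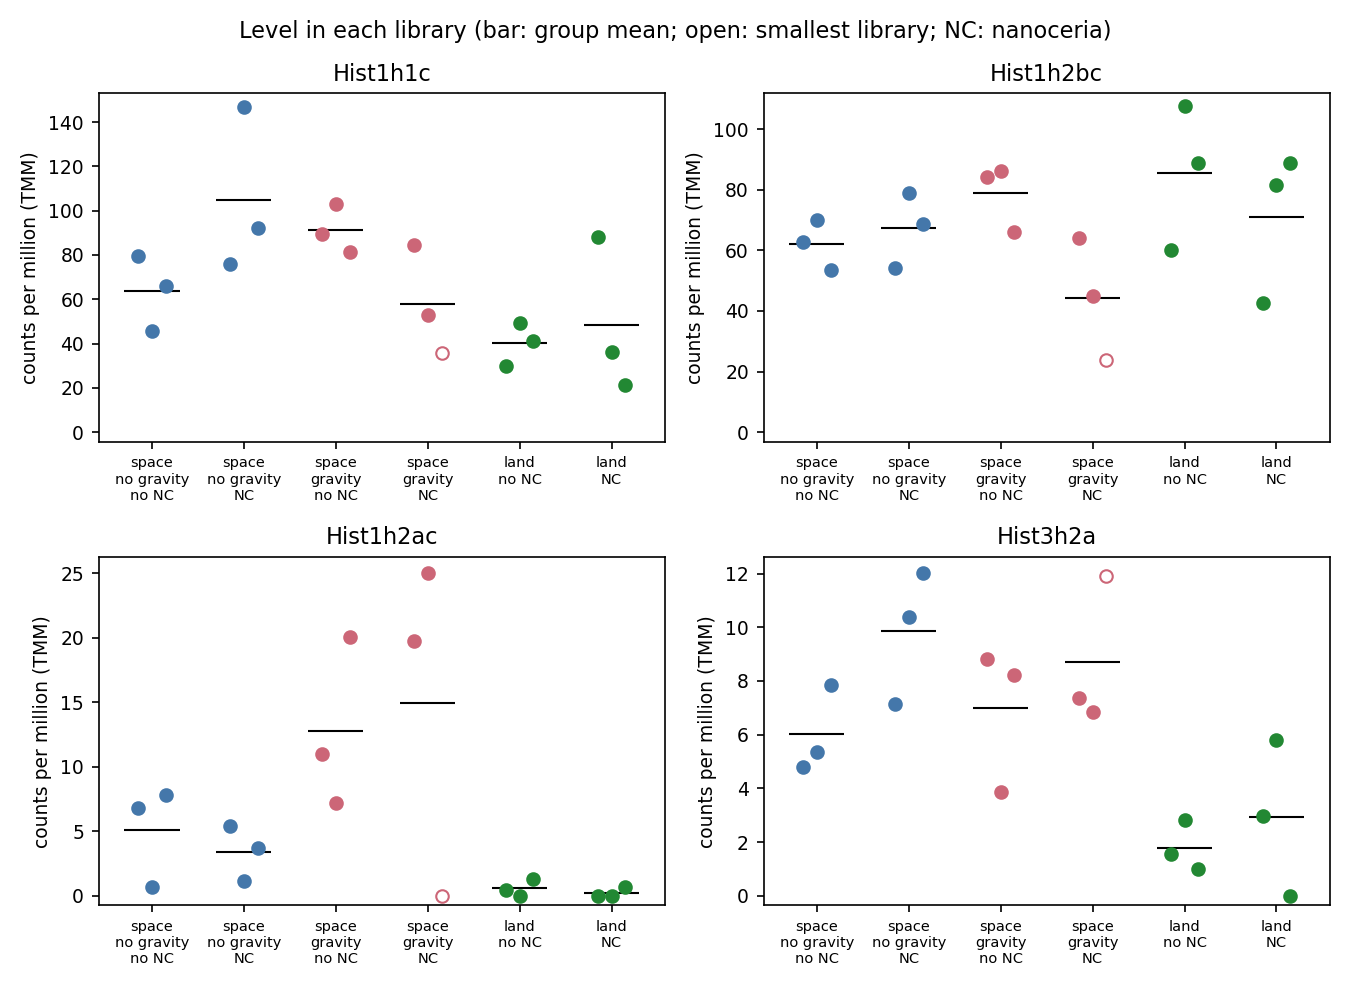
Level in each of the 18 libraries, in CPM, of Hist1h1c, Hist1h2bc, Hist1h2ac and Hist3h2a; bars are group means, NC is nanoceria and the open circle is the smallest library. Hist1h2ac stands at 1.31 CPM or less in all land libraries and at 7.22 to 25.0 CPM in the 5 larger libraries of space with gravity, and Hist1h2bc overlaps between the 3 regimes.

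Hist1h2ac and Hist1h2bc face away from each other on opposite strands. The stretch between them is shown because the pair shares it while their levels differed in pattern. It holds the 250 bases before the RefSeq start of Hist1h2ac, read on that gene's strand, and its first bases lie within the model of Hist1h2bc, which begins at position 23684199. The octamer ATGCAAAT, the TATAAA box and the CCAAT box are in capitals, on whichever strand they lie.
Hist1h2ac upstream, chr13:23683960-23684209, minus strand: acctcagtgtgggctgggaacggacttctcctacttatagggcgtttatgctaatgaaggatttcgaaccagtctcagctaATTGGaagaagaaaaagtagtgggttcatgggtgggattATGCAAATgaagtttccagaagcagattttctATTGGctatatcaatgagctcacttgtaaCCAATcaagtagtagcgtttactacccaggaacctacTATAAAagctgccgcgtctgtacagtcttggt
Counted from its 5′ end, CCAAT begins at position 182 as printed and lies at 82 and 153 on the opposite strand, ATGCAAAT begins at 121 and TATAAA at 219. In the RefSeq promoter table for GRCm38.p6, which spans 250 bases before to 50 after each start, 59 of the 68 histone genes had an entry. CCAAT, searched on both strands, was present in 84.7% of them and in 37.9% of all 27025 promoters. By class it was in 100% of the H1, H2A, H2B and H3 promoters and in 3 of 12 H4 promoters (25%). ATGCAAAT, the octamer, was present in 41.2% of H2A and 35.7% of H2B promoters, in 0 of the H1, H3 and H4 promoters and in 1.75% of all. TATAAA was present in 59.3% of histone promoters and 14.2% of all.

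Hist1h2bc (ENSMUSG00000018102, chromosome 13, 23684199 to 23692488, plus strand, 2 exons) ran from 42.6 to 108 CPM on land with a median of 85.1, from 53.6 to 79.1 CPM in space without gravity with a median of 65.7, and from 44.8 to 86.4 CPM in the 5 larger libraries of space with gravity with a median of 66.2. The regimes overlapped, and its log2 fold changes against land were -0.35 ± 0.34 (SE, edgeR adjusted p 0.504) with gravity and -0.27 ± 0.33 (SE, edgeR adjusted p 0.656) without it. Within space with gravity, its 66.2 to 86.4 CPM without nanoceria did not overlap the 23.8 to 64.1 CPM with it, the lowest from 2 counts in the smallest library, and the difference did not pass (-0.74 ± 0.49, SE, edgeR adjusted p 1). As a share of the pair's counts, a measure that no library scaling enters, Hist1h2ac made up 0.718% ± 0.730 (SD, n = 3) on land without nanoceria and 0.242% ± 0.420 (SD, n = 3) with nanoceria. Space without gravity had 7.83% ± 6.14 (SD, n = 3) and 5.19% ± 3.83 (SD, n = 3). Space with gravity had 14.2% ± 8.12 (SD, n = 3) and 19.8% ± 18.2 (SD, n = 3), or 29.7% ± 8.67 (SD, n = 2) without the smallest library, which had 2 counts of the pair. The lowest share among the larger libraries of space with gravity was 7.71% of 1089 counts (Wilson 95% interval 6.27 to 9.45), and the highest on land was 1.46% of 274 counts (Wilson 95% interval 0.569 to 3.69). These intervals cover counting error only.

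**Figure D4:**
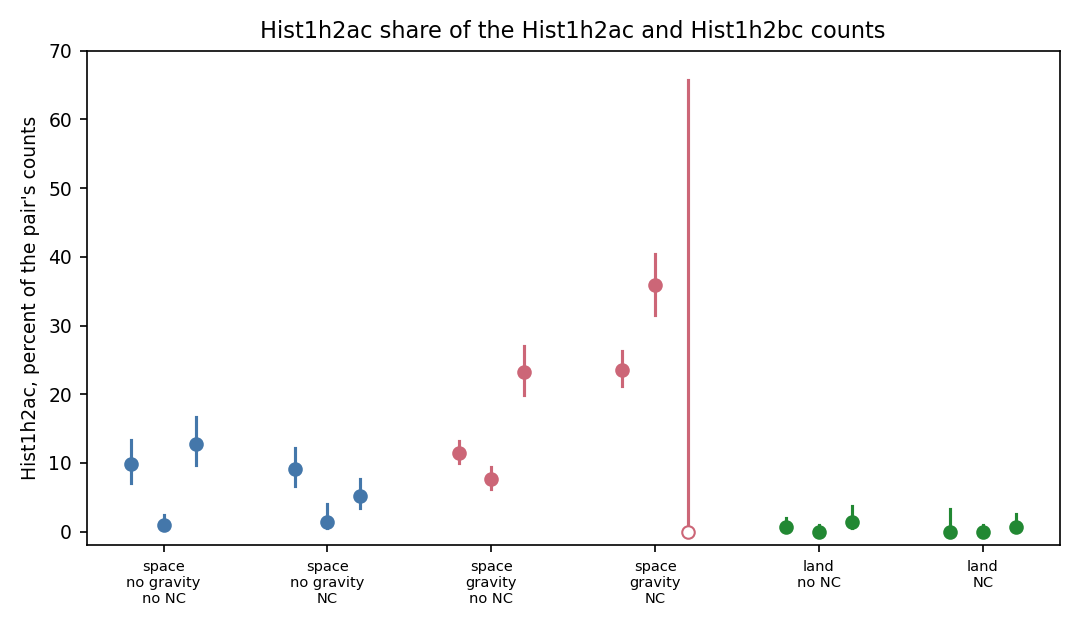
Hist1h2ac as a percent of the counts of Hist1h2ac and Hist1h2bc together in each library, with Wilson 95% intervals; the open circle is the smallest library, which has 2 counts of the pair, and NC is nanoceria. The land libraries lie between 0% and 1.46% and the 5 larger libraries of space with gravity between 7.71% and 35.8%.

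Hist1h2bn encodes a core histone H2B (ENSMUSG00000095217, chromosome 13, 21754123 to 21754503, plus strand, 1 exon). It had 0 counts in all 6 land libraries and in all 6 libraries of space without gravity. In space with gravity it had 9, 15 and 58 counts without nanoceria and 39, 0 and 1 with it. Its pooled level under gravity in space was set against a floor of 3 counts over the 6 libraries of the empty side. It was 19.3-fold above the floor on land and 24.9-fold above the floor without gravity. These ratios pool the libraries and leave out the spread between units, so they are no bounds on a difference between units. Of the 122 counts 58 lay in replicate 3 without nanoceria. Without that library the ratios were 11.5-fold and 14.8-fold, a check chosen after seeing the data. The edgeR adjusted p was 0.0326 against land and 0.509 for gravity withdrawn. The call against land ended under the DESeq2 test (adjusted p 0.185), limma voom (adjusted p 0.152), the covariate (edgeR adjusted p 0.804), and in 7 of the 12 fits without 1 library. Those 7 left out replicate 2 or 3 of space with gravity without nanoceria, replicate 1 or 3 of it with nanoceria, land replicate 1 or 2 without nanoceria or land replicate 3 with it, with edgeR adjusted p from 0.0517 to 0.199. Its model ends before the stem-loop, so it covers the coding sequence only.

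Hist3h2a, the H2A gene of the cluster on chromosome 11 (ENSMUSG00000078851, 58954685 to 58956830, plus strand), ran from 0 to 5.81 CPM on land with a median of 2.18. It ran from 4.81 to 12.02 CPM in space without gravity and from 3.87 to 11.9 CPM in space with gravity, with medians of 7.49 and 7.80. The 11.9 CPM was 1 count in the smallest library, and without it space with gravity reached 8.83 CPM with a median of 7.36. Land replicate 2 with nanoceria, at 5.81 CPM, was the land library inside the ranges of space. The log2 fold changes were 1.64 ± 0.56 (SE, edgeR adjusted p 0.0584) and 1.72 ± 0.55 (SE, edgeR adjusted p 0.0691), which did not pass. For space without gravity the DESeq2 test and limma voom put it past the threshold (adjusted p 0.0435 and 0.0494). It overlaps Trim17, which had 29 counts in all, on the same strand.

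Of the linker histones, Hist1h1c (ENSMUSG00000036181, chromosome 13, 23738808 to 23740367, plus strand) ran from 21.2 to 88.1 CPM on land, from 45.5 to 147 CPM in space without gravity and from 35.7 to 103 CPM in space with gravity. The 35.7 CPM was 3 counts in the smallest library, and the lowest without that library was 52.8 CPM. Its log2 fold changes against land were 0.75 ± 0.39 (SE, edgeR adjusted p 0.194) with gravity and 0.89 ± 0.39 (SE, edgeR adjusted p 0.164) without it. Hist1h1e, another H1 gene, had -1.78 ± 0.72 (SE, edgeR adjusted p 0.100) and -0.62 ± 0.67 (SE, edgeR adjusted p 0.599). Its medians were 2.99 CPM on land, 0.589 CPM in space with gravity (0.792 without the smallest library) and 1.35 CPM in space without gravity. With the DESeq2 test and limma voom Hist1h1e passed as lower in space with gravity (adjusted p 0.0358 and 0.0452), and with the covariate its value turned to 0.19 (edgeR adjusted p 0.989).

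Of the other H2B genes, Hist1h2be had 1.49 ± 0.64 (SE, edgeR adjusted p 0.116) for space with gravity against land, and 203 of its 377 counts lay in 1 library, space with gravity without nanoceria replicate 1. Hist1h2bg had 4.07 ± 1.52 (SE, edgeR adjusted p 0.0797), with 0 to 2 counts in each land library and 53 counts in that same library of space, and passed with the DESeq2 test (adjusted p 0.0238). Among H3 and H4 genes, Hist2h3c2, Hist1h3d, Hist1h4i and Hist2h4 had log2 fold changes of -0.19 ± 0.51 (SE), 0.88 ± 0.73 (SE), 0.05 ± 0.51 (SE) and 0.19 ± 0.55 (SE) for space with gravity against land. None of these 4 passed, and the signs of Hist1h4i and Hist2h4 turned with DESeq2 size factors, which put the median of all genes at -0.39.

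**Figure D5:**
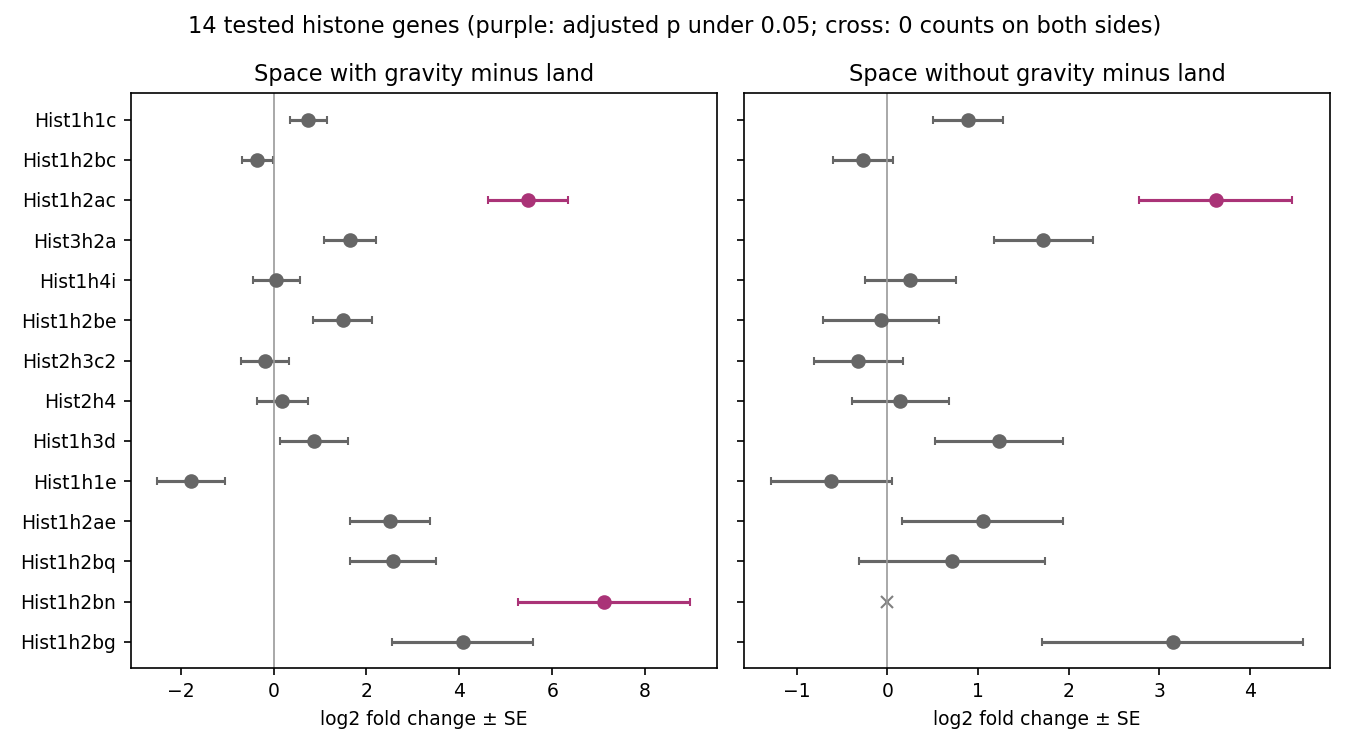
Log2 fold change ± SE of the 14 tested histone genes for space with gravity minus land and space without gravity minus land, from edgeR; purple marks an adjusted p under 0.05 the cross marks Hist1h2bn, with 0 counts on both sides, and the horizontal scales of the panels differ. Hist1h2ac stands at 5.48 and 3.62; the fitted value of Hist1h2bn rests on land libraries without a count, and the signs of Hist1h4i, Hist2h4, Hist2h3c2, Hist1h2be and Hist1h1e turned in at least 1 alternative.

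Withdrawing gravity in space called 0 histone genes with edgeR, with 4 at an unadjusted p under 0.05, all lower without gravity. The DESeq2 test and limma voom also called 0, with 3 and 4 at an unadjusted p under 0.05. Over all genes edgeR called 0%, and 5.85% reached an unadjusted p under 0.05, 2.09% higher and 3.76% lower. Among those 4, Hist1h2ac differed by -1.86 ± 0.66 (SE, edgeR adjusted p 0.721) and Hist1h2be -1.56 ± 0.63 (SE, edgeR adjusted p 0.756). Hist1h2bq and Hist1h2bn were the others. Hist1h2bn could pass the filter only through space with gravity, so its direction was fixed in advance. Hist1h2ac and Hist1h2bq also passed through groups of space, so the count of 4 does not speak for the histone genes as a set. Log2 fold changes of the 14 ran from -7.12, that of Hist1h2bn with its empty side, to 1.16. Without a filter on low counts Hist1h2bn passed (edgeR adjusted p 6.53e-05, beside 0.509 with the filter), on 122 counts against 0. Those counts lay unevenly, with 58 in 1 library of space with gravity and 0 in another.

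Nanoceria, averaged over the 3 regimes, also called 0 histone genes with edgeR, with 1 at an unadjusted p under 0.05, where 6.54% of all genes reached it, 2.86% higher and 3.69% lower. The DESeq2 test and limma voom called 0, with 0 and 1 at an unadjusted p under 0.05. The gene was Hist2h3c2, which encodes a core histone H3, with 0.87 ± 0.41 (SE, edgeR adjusted p 0.752). Its level was 2.67, 0.511 and 0.986 CPM on land without nanoceria and 4.44, 7.21 and 11.7 CPM with it, which did not overlap, while the 2 levels overlapped within both regimes of space. The F-test of nanoceria by regime called 0 histone genes with edgeR (2 at an unadjusted p under 0.05, Hist2h3c2 and Hist1h2ae), against 0% of all genes (6.14% at an unadjusted p under 0.05). Hist1h2ac had -0.45 ± 0.64 (SE) and Hist1h1c 0.13 ± 0.32 (SE) for nanoceria averaged over regimes.

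Across the 9 pairwise comparisons of 3 libraries with 3, edgeR called 0 histone genes. Over all genes it called 0.00865% for space with gravity against land with nanoceria, 0.0433% for the other regime of space against land at that level, and 0% in the remaining 7. Counts of histone genes at an unadjusted p under 0.05 are given next, each beside the share of all genes that reached it. Some of these counts include genes that passed the filter through groups of space, so they do not speak for the histone genes as a set. For nanoceria they were 0 in space without gravity (3.97%), 1 in space with gravity (4.46%) and 1 on land (10.2%). For gravity withdrawn they were 4 without nanoceria (4.05%) and 2 with it (5.78%). For space with gravity against land they were 7 without nanoceria (21.5%) and 4 with it (20.5%). Space without gravity against land gave 2 without nanoceria (13%) and 5 with it (19.2%). For space with gravity against land without nanoceria, the DESeq2 test called 1 histone gene, where it called 11.1% of all genes, and limma voom called 4, where it called 20.6%. With nanoceria the DESeq2 test called 1, where it called 8.15% of all genes, and limma voom 0, where it called 0%.

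The genes that make and process histone mRNA were taken as a list of 21, of which 20 were tested. For space with gravity against land 3 rose and 1 fell, beside 7.22% and 6.74% of all genes, and the list's median log2 fold change was 0.52 beside -0.04. Ccne2, a cyclin E that drives entry into S phase, rose by 2.98 ± 0.65 (SE, edgeR adjusted p 0.0105), with land libraries from 1.48 to 5.59 CPM and space with gravity from 4.94 to 36.0 CPM. Hinfp, a transcription factor that binds histone H4 promoters, rose by 2.25 ± 0.46 (SE, edgeR adjusted p 0.00838), with 1.97 to 5.18 CPM on land and 7.61 to 25.4 CPM in space with gravity, which did not overlap. Cpsf3, the nuclease that cuts histone pre-mRNA, rose by 2.02 ± 0.60 (SE, edgeR adjusted p 0.0322). Cdk2, the kinase partner of cyclin E, fell by 2.13 in log2 units (SE 0.66, adjusted p 0.0397 in edgeR). Slbp, Npat (the coactivator of histone genes) and Casp8ap2 did not pass, nor did Lsm10 and Lsm11 of the U7 particle. Slbp had medians of 3.18 CPM on land and 5.02 CPM in space with gravity, with overlapping ranges. For space without gravity against land Ccne2 rose by 2.81 ± 0.64 (SE, edgeR adjusted p 0.0232), and no other gene of the list passed.

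Of 12 histone chaperones, all tested, Nasp rose in space with gravity against land (1.72 ± 0.56, SE, edgeR adjusted p 0.0490) and none fell. In this comparison 7.22% of all genes passed as higher and 6.74% as lower, which is the background for the chaperones and for the lists that follow. The list of replication-independent histone variants held 11 genes, most of which are made outside S phase as well and carry poly(A) tails. Of these genes H2afz rose by 2.02 ± 0.43 (SE, edgeR adjusted p 0.00954) and H2afx fell by 1.26 in log2 units (SE 0.41, adjusted p 0.0488 in edgeR). H2afz stood at 6.18 to 27.9 CPM on land, 31.0 to 119 CPM in space with gravity and 28.7 to 78.7 CPM in space without gravity, so both regimes of space lay above land in every library. It also rose for space without gravity against land (2.06 ± 0.43, SE, edgeR adjusted p 0.0179). Of 20 S phase genes 19 were tested. In space with gravity Rrm1 rose by 1.67 ± 0.49 (SE, edgeR adjusted p 0.0322) and Rrm2 fell by 2.65 in log2 units (SE 0.57, adjusted p 0.00994 in edgeR). These encode the subunits of the same enzyme, ribonucleotide reductase. In space without gravity 0 S phase genes passed with edgeR, and 3 of 19 had an unadjusted p under 0.05, where 24.7% of all genes did. The list's medians were 0.10 and 0.42.

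RNAs known to lack a poly(A) tail were followed as a list because histone mRNAs normally lack one too. Of 18 such RNAs, 6 were tested. In space with gravity against land Scarna13 rose (4.63 ± 1.24, SE, edgeR adjusted p 0.0245), while Rn7s1 and Rn7s2, the RNA of the signal recognition particle, fell by 2.85 and 2.99 in log2 units (edgeR adjusted p 0.0212 and 0.0121). Their summed level ran from 10.6 to 71.3 CPM over the libraries of space and from 16.9 to 245 CPM over those of land, and 7 of the 18 were at 0 in every library. Of the dominant genes 3 of 6 fell in the same comparison. The part of these differences in the level of Hist1h2ac was not tested. The covariate for the dominant genes' share cannot decide it, because that share itself differed between regimes. It was 23.8% to 54.4% in space with gravity and 49.6% to 76.3% on land.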

How the data were processed

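Polyadenylated RNA of C2C12 myoblasts was sequenced in 18 libraries, 3 in each of 6 groups. The deposited values are raw counts for each Ensembl gene beside its exon coordinates, strand and length, per the file headers. The submitters' processing notes name CASAVA, Trimmomatic 0.36.29, STAR, Subread, featureCounts and the build GRCm38.p6. The use of strand and of reads with several matches is not given in the sources used here. The library kit named in the labels does not mark strand. The 18 small RNA samples were not analysed here.

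The count model was that of edgeR 4.0.16 (R 4.3.3): filterByExpr over the 6 groups (11558 genes), TMM scaling, robust quasi-likelihood fit of group means over all 18 libraries (12 residual degrees of freedom), Benjamini-Hochberg adjustment. The contrasts were 4 averaged and 9 pairwise, with an F-test of nanoceria by regime. On simulated counts with known changes the fit recovered its changed genes with few false calls. Those changes were large and set only in genes more abundant than any tested histone gene other than Hist1h1c and Hist1h2bc. The simulation therefore does not cover genes as sparse as Hist1h2ac and Hist1h2bn. Alternatives were DESeq2 1.42.0, limma 3.58.1 voom, other filters and scalings, a covariate, and leaving out libraries. Stem-loops and promoter motifs were searched in GRCm38.p6, GENCODE M21 and RefSeq tables. The rule for named genes took histone genes past the threshold, the 12 with the highest mean CPM, and the 2 highest of each class and cluster. The histone genes, lists and tests were chosen with earlier results of these data known.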

Additional observations from a re-analysis of the deposited data

How the results depend on the processing

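No paired analysis was possible because the labels number no replicates, so the numbers used here only name libraries. The cause of each change below was not tested unless the setting itself shows it.

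Averaged over nanoceria, 2 histone genes passed for space with gravity against land. Each count is followed by the share of all genes called under the same setting, 14% here. The count was 3 with the DESeq2 test (23.3%) and with limma voom (14.2%), 5 of 60 without a filter on low counts (8.9%), 1 of 3 with a mean of at least 50 counts (21.1%), 1 without the smallest library (13%) and 0 with a covariate for the dominant genes' share of counts (0.00865%), and it ran from 1 to 4 over the fits that left out 1 library (3.73% to 13%). For space without gravity against land, where 1 passed (5.25%), it was 2 with the DESeq2 test (13.2%) and limma voom (8.56%), 3 without a filter (5.82%), 0 with the covariate (0.0519%), and 0 to 2 over the fits without 1 library (0.666% to 5.65%). For gravity withdrawn it was 1 without a filter (0.909%), and also 1 without nanoceria (0.623%) and with it (1.32%). For the pairwise comparisons of space with gravity against land without nanoceria it was 1 with the DESeq2 test (11.1%), 4 with limma voom (20.6%), 2 without a filter (3.89%), 1 with a mean of at least 50 counts (3.16%) and 1 with only the libraries compared (4.21%). With nanoceria it was 1 with the DESeq2 test (8.15%), 2 without a filter (4.6%) and 1 with a mean of at least 50 counts (1.95%). For space without gravity against land it was 2 without a filter at each nanoceria level (1.98% without, 4.44% with). The nanoceria contrasts and the test of nanoceria by regime stayed at 0 in every setting run.

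Of the single-gene log2 fold changes recomputed under alternatives, fits without 1 library aside, 193 kept their sign and their side of the threshold, 6 lost the call, 9 gained it and 11 turned in sign. The turned values, none of them past the threshold, were as follows. With DESeq2 size factors Hist1h4i was -0.30 and Hist2h4 -0.12 (with gravity) and -0.047 (without). With the DESeq2 test Hist1h4i was -0.29 and Hist2h4 -0.059 and -0.052. With limma voom Hist2h3c2 was 0.19, Hist1h4i -0.082 and Hist1h2be 0.10. With the covariate Hist1h1e was 0.19 and 0.25. Over the fits without 1 library 294 kept both, 13 lost the call, 5 gained it and 18 turned in sign. In the results that turned, space with gravity against land ran from -0.21 to 0.45 for Hist1h4i, -0.35 to 0.32 for Hist2h3c2 and -0.0060 to 0.52 for Hist2h4, and space without gravity against land from -0.20 to 0.63 for Hist1h4i, -0.32 to 1.03 for Hist1h2be, -0.66 to 0.17 for Hist2h3c2 and -0.086 to 0.46 for Hist2h4.

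Group means of the summed level moved by more than the spread between libraries in the following cases. A new denominator changes the unit, and leaving out a gene lowers every sum. Such a move by itself therefore does not show a changed order of the groups. Per 1000000 of all counts, with no TMM scaling, they were 274 in space with gravity, 306 there with nanoceria (187 without the smallest library) and 100.2 on land with nanoceria. Per 1000000 counts outside the dominant genes they were 380, 412, 396, 450, 404 and 287 in the order space without gravity, with gravity and land, each without and then with nanoceria, and the 450 became 318 without the smallest library. The values without that library under these denominators were chosen after seeing the data. Without Hist1h1c they were 96.2, 108, 137, 114, 105 and 104. The smallest library limits every value of its group: 3 counts there are 35.7 CPM, against 0.193 to 1.11 CPM in the others.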
